A study of Mus musculus with 72 samples.

Results

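A set of 7 genes of early B cell development was followed in Eμ-Myc lymphoma cells treated with, or relapsed after, CX-5461 and everolimus: Rag1, Rag2, Dntt, Vpreb1, Vpreb2, Vpreb3 and Igll1. These 7 were selected by name, as the genes of V(D)J recombination and of the surrogate light chain, because Rag1 was higher than in the drug-naive lines in every group of lines that had relapsed on a drug. All 7 were found in each of the 4 count tables, which list 35149 genes (acute input), 30901 genes (acute polysomal) and 35556 genes (each relapse table). The relapse values against drug-naive lines chose the genes and are therefore given as a description: counts of these genes past the threshold in those contrasts are printed beside the share of all genes, and nothing is read from them. The acute treatment, the comparisons between drugs and the comparison of polysomal with input RNA were not used in the choice and are tested.

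RAG1 and RAG2 form the recombinase that cuts immunoglobulin and T cell receptor genes at recombination signals, and terminal deoxynucleotidyl transferase, encoded by Dntt, adds untemplated bases at the cut ends before they are joined. In pre-B cells the products of the Vpreb1 or Vpreb2 and Igll1 genes form the surrogate light chain, which pairs with the immunoglobulin heavy chain in the pre-B cell receptor, and VPREB3 binds immunoglobulin chains inside the cell. Normal B cells stop recombination and surrogate light chain expression once a complete receptor is made, and lymphomas of Eμ-Myc mice, in which an immunoglobulin heavy chain enhancer drives Myc in B lineage cells, can have a pre-B or a mature B cell phenotype.

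Every library came from Eμ-Myc B-lymphoma cells carrying MSCV Gfp. In the acute study, cells of clone 4242 were transplanted into C57BL/6 mice, which were treated on day 10 for 2 h with vehicle, with CX-5461 (35 mg/kg, an inhibitor of RNA polymerase I), with everolimus (5 mg/kg, an inhibitor of mTOR complex 1) or with both at those doses, with 6 mice in each of the 4 groups. In the relapse study, cells of clone 107 were taken from lymph nodes of mice that had succumbed after vehicle (called drug-naive in the labels), CX-5461, everolimus or the combination, and were cultured for 2 to 3 passages into 12 lines, 3 per group. Each mouse or line gave cytoplasmic (input) RNA and RNA of fractions with 4 or more ribosomes (polysomal), which makes 72 libraries. The relapse lines were not described as being in drug when RNA was taken, and doses and treatment lengths before relapse are not given in the sources used here, nor is the age of the mice or the tissue taken in the acute study. Each study rests on 1 clone, so a difference between studies cannot be told apart from a difference between clones, and the 3 drug groups of a study share 1 control group. The relapse lines are named below by the numbers in their labels.

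The depth of the libraries, as reads counted in genes, was 17.1 to 24.7 M (input) and 11.5 to 20.8 M (polysomal) in the acute study, and 14.6 to 26 M (input) and 15.5 to 30.4 M (polysomal) in the relapse study. The B lineage markers Cd79a, Cd79b, Pax5, Ebf1 and Blk had mean levels above 1 CPM (counts per M reads in genes) in both fractions of both studies. The acute libraries also held RNA of host cells. Summed input levels with vehicle had a median of 2170 CPM for red cell genes (up to 14100 CPM in a CX-5461 mouse), 1280 CPM for stroma and endothelium and 510 CPM for myeloid cells. For T cells 14 of 15 genes were above 1 CPM, and their summed input level was 81.3 to 110 CPM with vehicle and 54.8 to 69.5 CPM with CX-5461. In the relapse lines 1 of 14 T cell genes (Lck) was above 1 CPM and 1 of the 14 was at 0 in every library. In the relapse polysomal RNA, CX-5461 lines 14 and 39 stood apart from the third line, 20, and were listed in a run of columns with no drug-naive line in it. The part of host cells and of these lines in the acute and polysomal values was not tested beyond the values given below.

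The recombinase genes lie next to each other in opposite directions on mouse chromosome 2 (GRCm38). Rag1 occupies 101638282 to 101649501 on the minus strand with 2 exons, and Rag2 occupies 101624718 to 101632529 on the plus strand, with 5752 bases between them. Their upstream sequences are shown because these are the members whose levels moved together in the relapse lines. Each is the 250 bases before the RefSeq start (GRCm38.p6), at chr2:101649533-101649782 on the minus strand for Rag1 and chr2:101624462-101624711 on the plus strand for Rag2. Capitals mark, on either strand, matches to the E-box (CANNTG, the site of E proteins such as the product of Tcf3), to the RUNX letters TGTGGT and to CCAAT.
Rag1: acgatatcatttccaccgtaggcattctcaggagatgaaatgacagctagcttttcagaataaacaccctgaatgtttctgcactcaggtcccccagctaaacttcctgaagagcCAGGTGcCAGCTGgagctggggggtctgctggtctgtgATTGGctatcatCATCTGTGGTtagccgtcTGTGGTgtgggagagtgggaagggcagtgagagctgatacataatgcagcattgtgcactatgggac
Rag2: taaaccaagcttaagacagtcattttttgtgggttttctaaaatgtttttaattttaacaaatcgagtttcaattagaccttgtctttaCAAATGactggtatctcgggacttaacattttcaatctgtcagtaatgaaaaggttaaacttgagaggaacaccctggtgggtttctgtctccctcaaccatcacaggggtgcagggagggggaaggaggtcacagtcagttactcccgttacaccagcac
The Rag1 sequence held 3 E-box, 2 RUNX and 1 CCAAT matches, and the third E-box match overlapped a RUNX match. It also held 1 match to the Ikaros letters TGGGAA, which is not in capitals. The Rag2 sequence held 1 E-box match and none of the other letters. Neither held the EBF letters CCCNNGGG or the FOXO letters TGTTTAC. Over 32851 promoters of the same length, 66.2% held an E-box match, 14% a RUNX match, 33.8% a CCAAT match, 21.6% an Ikaros match, 11.8% an EBF match and 3.17% a FOXO match. These matches are a description of the letters in this window.

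The other members lie elsewhere in the genome. Dntt (13 exons) is on chromosome 19 at 41029275 to 41059525. Igll1 (16860671 to 16863985) and Vpreb1 (16868403 to 16870843) are 4417 bases apart on chromosome 16, with Vpreb2 on the same chromosome at 17980428 to 17981273, and Vpreb3 is on chromosome 10 at 75943057 to 75949657. Vpreb1 and Vpreb2 are near-identical copies: 420 of their 429 coding bases are the same. The stretch of coding bases 238 to 387 of the annotated transcripts (GENCODE M21) is shown because it carries most of what tells the 2 genes apart, and capitals mark the 6 bases that differ.
Vpreb1: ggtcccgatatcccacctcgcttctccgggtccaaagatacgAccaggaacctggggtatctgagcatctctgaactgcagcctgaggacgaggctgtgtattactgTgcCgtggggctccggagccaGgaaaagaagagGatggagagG
Vpreb2: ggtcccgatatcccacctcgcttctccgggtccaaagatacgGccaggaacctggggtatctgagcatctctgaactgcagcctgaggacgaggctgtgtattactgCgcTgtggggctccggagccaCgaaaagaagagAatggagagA
Windows of 50 bases, the read length here, that also occur in transcripts of another gene made up 23.6% of the exonic windows of Vpreb1 and 32.8% of those of Vpreb2, against 4.7% for Rag2, 0.503% for Rag1 and 0 for the remaining members. For Vpreb1, 233 of these windows are in Vpreb2 and 59 in Top3b, which overlaps Vpreb1. Those of Rag1 and Rag2 are in B230118H07Rik, which overlaps both. Reads of Vpreb1 and Vpreb2 can thus be dropped or split between genes, and the counts of these genes are uncertain.

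Per length of exon, Vpreb3 was the most abundant member in every fraction of both studies. In the relapse input the mean over lines was 266 CPM per kb of exon for Vpreb3, 6.86 for Rag1, 3.41 for Rag2, 0.314 for Vpreb1, 0.135 for Vpreb2, 0.0863 for Igll1 and 0.0498 for Dntt. In the acute input the order was Vpreb3 at 150 CPM per kb, Rag1 at 0.48, Rag2 at 0.407, Vpreb1 at 0.288, Dntt at 0.172, Igll1 at 0.161 and Vpreb2 at 0.0395. Both clones thus expressed Vpreb3 well, while the remaining surrogate light chain genes and Dntt were covered by few reads.

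Rag1, the catalytic subunit of the recombinase, was higher in every relapse line from drug-treated mice than in every drug-naive line. In the input RNA the 3 drug-naive lines had 6.59 (line 6), 5.78 (line 33) and 8.15 CPM (line 38). The CX-5461 lines had 64.2 (line 14), 105 (line 20) and 73.7 CPM (line 39). The everolimus lines had 30.4 (line 4), 45 (line 12) and 19.6 CPM (line 26), and the combination lines had 64.9 (line 8), 66.1 (line 9) and 53.9 CPM (line 31). The groups thus did not overlap the drug-naive lines, the everolimus lines were lower than all CX-5461 and combination lines, and the last 2 groups overlapped. The share of all genes that separate groups of lines without overlap was not counted, here or for the genes below. These levels rest on 109 to 185 reads per drug-naive line and 317 to 1822 reads per drug line. The mean was 6.84 ± 1.21 CPM in the drug-naive lines, 81.1 ± 21.5 after CX-5461, 31.7 ± 12.7 after everolimus and 61.7 ± 6.70 after the combination (SD, n = 3 lines each). The fitted log2 fold change of Rag1 was 3.56 ± 0.30 for CX-5461, 2.21 ± 0.28 for everolimus and 3.17 ± 0.29 for the combination (± SE), ranking 33, 60 and 55 from the top among 14474 genes.

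**Figure D1:**
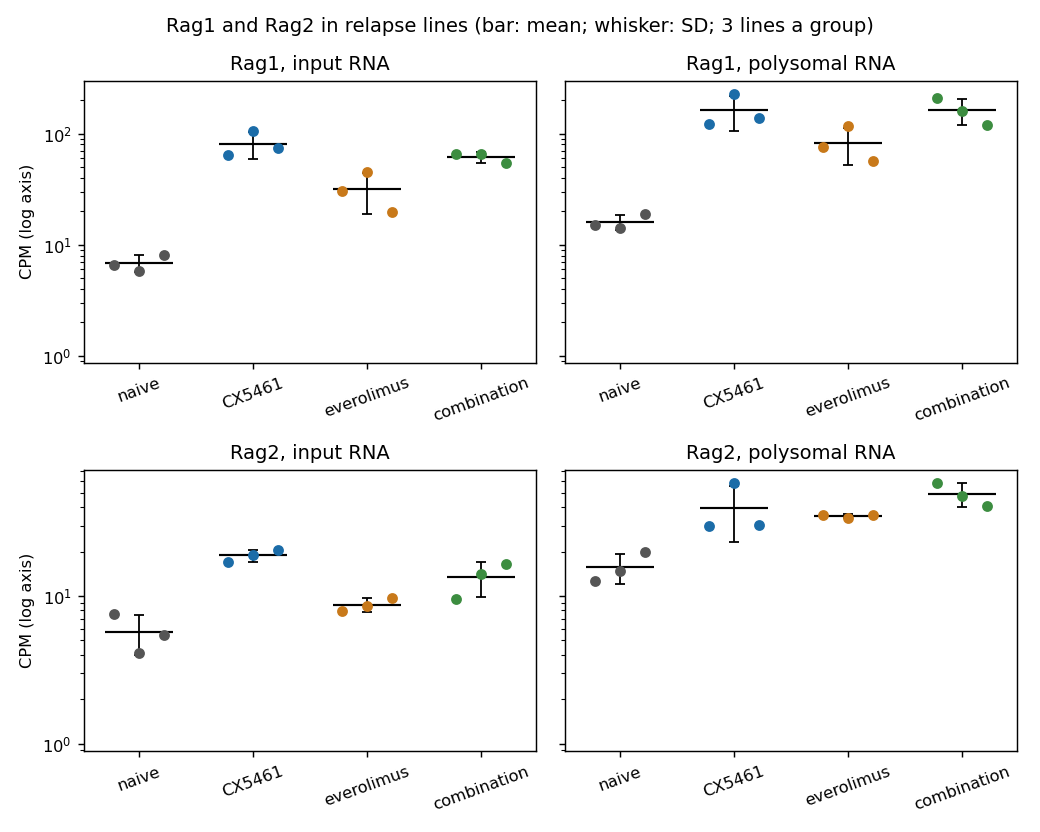
Rag1 and Rag2 levels in CPM (log axis) in each of the 12 relapse lines, in input and polysomal RNA, with points for lines, bars for group means and whiskers for the SD (n = 3). The Rag1 input values of the drug-naive lines lie between 5.78 and 8.15 CPM and those of all 9 drug lines between 19.6 and 105 CPM.

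In the polysomal RNA the Rag1 levels were 15.2, 14.1 and 18.9 CPM in drug-naive lines 6, 33 and 38. They were 123, 228 and 138 CPM in CX-5461 lines 14, 20 and 39, and 76, 116 and 56.5 CPM in everolimus lines 4, 12 and 26. Combination lines 8, 9 and 31 had 207, 160 and 121 CPM. All 9 drug lines were again above all drug-naive lines, and here the ranges of the CX-5461 and combination lines lay over each other. The log2 fold changes were 3.34 ± 0.34, 2.37 ± 0.33 and 3.34 ± 0.34 for CX-5461, everolimus and the combination (± SE). Without CX-5461 lines 14 and 39, the remaining CX-5461 line (20) had the highest polysomal level of all 12. Within each run of columns that held drug-naive lines, the lowest drug line was above the highest drug-naive line, at 45 against 8.15 CPM and 19.6 against 6.59 CPM in the input, and at 116 against 15.2 CPM and 56.5 against 18.9 CPM in the polysomal RNA.

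Rag2, the second subunit of the recombinase, moved in the same direction over a smaller range. Its input levels were 7.52, 4.13 and 5.42 CPM in drug-naive lines 6, 33 and 38, and 17, 19 and 20.6 CPM in CX-5461 lines 14, 20 and 39. They were 7.98, 8.52 and 9.73 CPM in everolimus lines 4, 12 and 26, and 9.52, 14.1 and 16.6 CPM in combination lines 8, 9 and 31. No drug line overlapped the drug-naive lines, although the gap between the lowest everolimus line and the highest drug-naive line was 7.98 against 7.52 CPM. The input log2 fold changes were 1.73 ± 0.24, 0.62 ± 0.24 and 1.23 ± 0.24 for CX-5461, everolimus and the combination (± SE). In the polysomal RNA the drug-naive lines spanned 12.7 to 19.7 CPM, the CX-5461 lines 29.9 to 58.2, the everolimus lines 33.8 to 35.4 and the combination lines 40.9 to 58.7. The 9 drug lines were above the drug-naive lines there too, with log2 fold changes of 1.33 ± 0.27, 1.15 ± 0.27 and 1.64 ± 0.27 in the same order (± SE).

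The ratio of Rag1 to Rag2 input reads was above that of the 3 drug-naive lines in all 9 drug lines. It was 1.26 ± 0.336 in the drug-naive lines, 4.3 ± 1.09 after CX-5461, 3.71 ± 1.64 after everolimus and 4.92 ± 1.79 after the combination (SD, n = 3). The lowest drug line had 2.02 Rag1 reads per Rag2 read and the highest drug-naive line 1.5. In the acute input, in clone 4242, the ratio was 2.08 ± 0.509 with vehicle (SD, n = 6).

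At an adjusted p of 0.05, 2 of the 4 members that passed the filter on low counts (Rag1, Rag2, Vpreb1 and Vpreb3) were past the threshold in the input for CX-5461 against drug-naive, where 8.37% of all 14474 genes tested were. The count was 1 of 4 for everolimus (11.7% of all genes) and 2 of 4 for the combination (13.5% of all genes). On polysomes it was 3 of 4 for CX-5461 (19.5% of 14797 genes), 1 of 4 for everolimus (0.115%) and 2 of 4 for the combination (10%). These counts belong to the contrasts that chose the genes. Dntt, Vpreb2 and Igll1 did not pass the filter in either fraction of the relapse study.

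The 3 drugs' relapse groups were then compared with each other, which the choice of genes did not use. In the input, Rag1 was higher after CX-5461 than after everolimus by 1.35 ± 0.27 on the log2 scale (adjusted p = 0.0245, edgeR's quasi-likelihood test over all genes), with all 3 lines of the first above all 3 of the second. Rag2 was higher in the same comparison by 1.11 ± 0.24 (adjusted p = 0.0302), again without overlap. These are 2 of the 4 members tested, and 4.04% of all genes passed. The share of all genes that separate these 2 groups without overlap was not counted. Vpreb3 and Vpreb1 did not pass. Both calls were lost when any of CX-5461 lines 14 and 39 or everolimus lines 4 and 26 was left out, with adjusted p up to 0.102 for Rag1 and 0.126 for Rag2. The Rag2 call was also lost without everolimus line 12, and the Rag1 call when the 2 groups were fitted alone (adjusted p = 0.0626).

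With edgeR as fitted here, no other comparison between drugs called a member. For the combination against everolimus in the input, Rag1 had a log2 difference of 0.96 ± 0.27 (adjusted p = 0.127) and Rag2 one of 0.61 ± 0.24 (adjusted p = 0.273), where 0.719% of all genes passed. DESeq2 and edgeR with no filter on low counts each called 1 member there, Rag1 (adjusted p = 0.0215 and 0.000135). These settings called 436 and 474 of all genes, against 104 in the main fit. For the combination against CX-5461 in the input the differences were -0.39 ± 0.26 (adjusted p = 0.704) and -0.49 ± 0.23 (adjusted p = 0.565), with 0.0207% of all genes past the threshold. At an unadjusted p of 0.05 the member counts were 2 and 0 of 4 in these comparisons, against 1888 and 1262 of all 14474 genes.

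For polysomal RNA, Rag1 differed by 0.97 ± 0.31 between CX-5461 and everolimus (adjusted p = 0.0779; 4.01% of all genes passed), by 0.97 ± 0.31 between the combination and everolimus (adjusted p = 0.166; 0.703%) and by -0.0050 ± 0.31 between the combination and CX-5461 (adjusted p = 0.993; 0.00676%). Rag2 differed by 0.18 ± 0.26, 0.49 ± 0.26 and 0.31 ± 0.26 in these comparisons (± SE; adjusted p = 0.641, 0.419 and 0.502). With edgeR the counts of members called were 0 of 4 in each, with 2, 1 and 0 of 4 at an unadjusted p of 0.05, against 4444, 2307 and 2862 of all 14797 genes. DESeq2, run without the filter on low counts, called 3 members for CX-5461 against everolimus, Rag1 (adjusted p = 0.0208), Vpreb3 (adjusted p = 0.0422) and 1 outside the 4 that passed that filter, and 0 for the combination against CX-5461. Of all genes DESeq2 called 2654 and 957 in these comparisons, against 593 and 1 in the main fit. For the combination against everolimus, DESeq2 called 1 member, Rag1 (adjusted p = 0.0375), and 781 of all genes against 104 in the main fit.

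Vpreb3, the abundant member of the surrogate light chain group, had similar input levels in all relapse groups. The drug-naive lines had 248 (line 6), 241 (line 33) and 226 CPM (line 38). The CX-5461 lines had 201 (line 14), 239 (line 20) and 172 CPM (line 39), and the everolimus lines 271 (line 4), 209.6 (line 12) and 274 CPM (line 26). The combination lines had 258 (line 8), 172 (line 9) and 230.2 CPM (line 31). Of the 9 drug lines, 3 were above and 4 below the whole drug-naive range. The log2 fold changes against drug-naive were -0.22 ± 0.17, 0.08 ± 0.17 and -0.12 ± 0.17 for CX-5461, everolimus and the combination (± SE).

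Vpreb3 on polysomes was lower in all 9 drug lines than in the 3 drug-naive lines. The drug-naive lines had 400.3, 403 and 392 CPM (lines 6, 33 and 38). The CX-5461 lines had 191, 311 and 178 CPM (lines 14, 20 and 39), the everolimus lines 368, 304 and 339 CPM (lines 4, 12 and 26) and the combination lines 311, 248 and 329 CPM (lines 8, 9 and 31). The 2 lowest values were those of CX-5461 lines 14 and 39, and the remaining CX-5461 line lay within the range of the everolimus and combination lines. The log2 fold changes against drug-naive were -0.81 ± 0.20, -0.24 ± 0.20 and -0.43 ± 0.20 (± SE). Over 12 alternatives the CX-5461 value ranged from -1.12 to -0.289. In these contrasts 19.5%, 0.115% and 10% of all genes were called. How many other genes separate the drug lines from the drug-naive lines in this way was not counted. Between CX-5461 and everolimus the polysomal difference was -0.57 ± 0.20 (adjusted p = 0.0958).

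**Figure D2:**
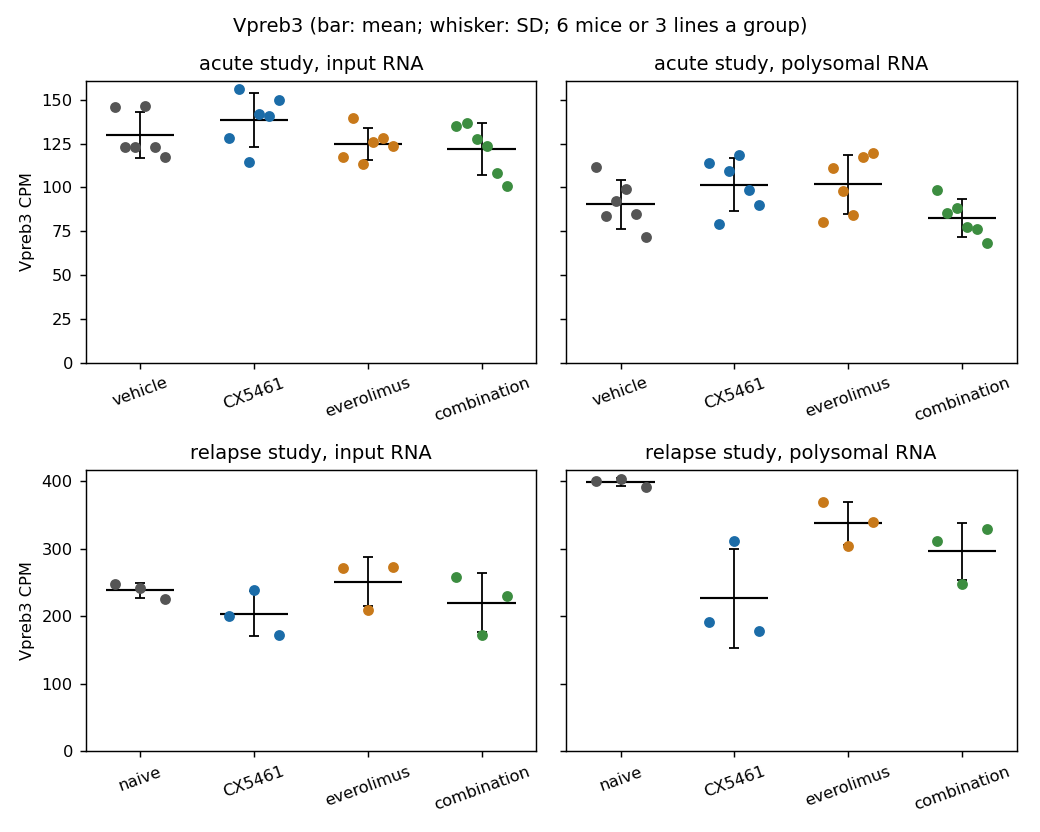
Vpreb3 levels in CPM (linear axis from 0) in each mouse of the acute study (top) and each relapse line (bottom), in input and polysomal RNA, with points for mice or lines, bars for group means and whiskers for the SD. In the relapse polysomal RNA the drug-naive lines lie between 392 and 403 CPM and the 9 drug lines between 178 and 368 CPM, while the input ranges overlap.

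Vpreb1, Vpreb2 and Igll1, the genes of the surrogate light chain itself, and Dntt were each covered by at most 48 reads in any relapse library. Vpreb1 had 7, 9 and 15 input reads in drug-naive lines 6, 33 and 38, and 27, 0 and 19 in CX-5461 lines 14, 20 and 39. It had 5, 0 and 0 reads in everolimus lines 4, 12 and 26, and 0, 13 and 4 in combination lines 8, 9 and 31. The CX-5461 group thus held both the highest line and a line at 0. The polysomal libraries had 22, 0 and 48 reads in the CX-5461 lines, 7, 0 and 0 in the everolimus lines and 1, 17 and 10 in the combination lines, so 3 of the 4 lines at 0 in the input were at 0 there too. The input log2 fold changes of Vpreb1 were 0.43 ± 1.12, -2.19 ± 1.42 and -0.87 ± 1.2 for CX-5461, everolimus and the combination (± SE).

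Igll1, which encodes the lambda5 part of the surrogate light chain, had 6, 5 and 13 input reads in the drug-naive lines 6, 33 and 38. In the drug lines it had 3, 0 and 16 reads after CX-5461 (lines 14, 20 and 39), 0, 0 and 4 after everolimus (lines 4, 12 and 26) and 0, 2 and 0 after the combination (lines 8, 9 and 31). In CPM, 8 of 9 drug lines were below all drug-naive lines, and the same count held on polysomes of the same lines. The exception in both was CX-5461 line 39, with 38 polysomal reads. Everolimus line 26, with 4 input reads, lay at 0.248 CPM, against 0.265 CPM in the lowest drug-naive line. Igll1 did not pass the filter on low counts, and the share of all genes that separate the lines this way was not counted. Igll1 and Vpreb1 are neighbours in the genome, and CX-5461 line 20 and everolimus lines 12 and 26 had 0 polysomal reads of both.

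Vpreb2 was not detected in any everolimus library of the relapse study (0 reads in 6 libraries). It had 3 input reads in the 3 drug-naive lines together, 8 after CX-5461 and 16 after the combination, of which combination line 9 had 10. On polysomes the CX-5461 lines had 8, 9 and 12 reads and the drug-naive lines 2, 0 and 2. A count of 0 in a relapse library allows a level of up to 0.0896 to 0.2 CPM in the polysomal RNA and 0.124 to 0.214 CPM in the input (3 counts, covering counting error only). Dntt was likewise at 0 reads in the polysomal RNA of all 3 drug-naive lines, and combination line 9 stood alone with 42 polysomal and 12 input reads. That line was thus the highest of the 12 for Dntt and for Vpreb2 in both fractions. With no filter on low counts, the polysomal Vpreb2 difference between CX-5461 and everolimus was 5.96 ± 1.79 on the log2 scale (adjusted p = 0.0914), a fitted value that depends on the prior count because one group is at 0.

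**Figure D3:**
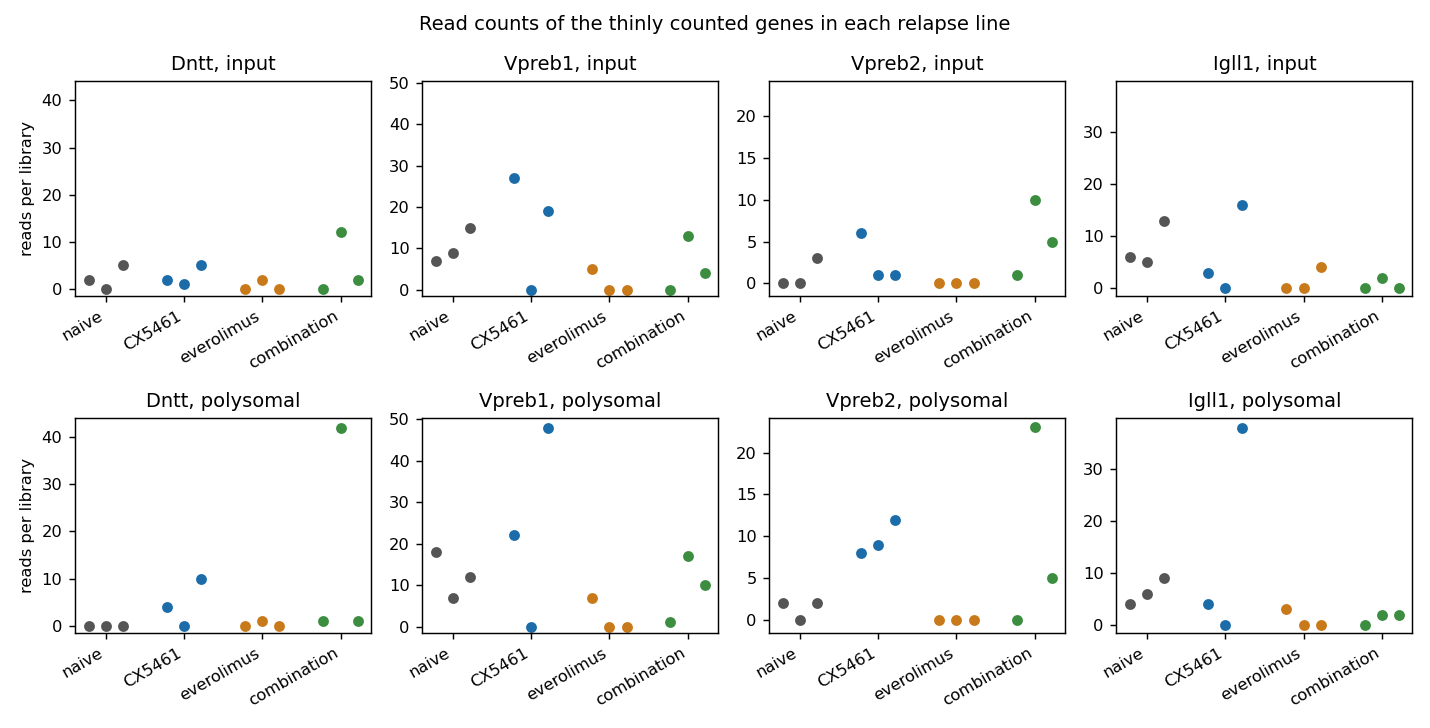
Read counts of Dntt, Vpreb1, Vpreb2 and Igll1 in each relapse line, in input and polysomal RNA, with points for lines. Igll1 lies at 0 to 4 reads in all everolimus and combination lines, and the highest Dntt count, 42, belongs to combination line 9.

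Within 2 h of treatment in mice, the recombinase genes did not show a change that passed the test. Rag1 input levels were 1.76 to 3.39 CPM with vehicle (median 2.75), 1.86 to 3.99 with CX-5461 (median 2.77), 3.11 to 4.35 with everolimus (median 3.64) and 2.75 to 4.67 with the combination (median 3.35), with 6 mice each. All groups overlapped the vehicle group. The log2 fold changes were 0.07 ± 0.17 (adjusted p = 0.967), 0.43 ± 0.16 (adjusted p = 0.266) and 0.33 ± 0.17 (adjusted p = 0.177) for CX-5461, everolimus and the combination (edgeR). The polysomal values were 0.21 ± 0.19 (adjusted p = 0.646), 0.47 ± 0.19 (adjusted p = 0.362) and 0.33 ± 0.19 (adjusted p = 0.248). The acute and relapse studies used different clones and times, so the values stand side by side without a test between them.

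Of the members that passed the filter on low counts, Rag2 had the largest acute difference, in the polysomal RNA. Vehicle mice had 0.63 to 1.29 CPM (median 0.981), CX-5461 mice 1.36 to 2.76 (median 1.62), everolimus mice 1.19 to 2.24 (median 1.98) and combination mice 0.753 to 1.85 (median 1.06). Every CX-5461 mouse was thus above every vehicle mouse, while the everolimus and combination groups overlapped the vehicle group. The share of all genes that separate CX-5461 from vehicle mice without overlap was not counted. The polysomal log2 fold changes were 0.82 ± 0.24 (adjusted p = 0.102), 0.90 ± 0.24 (adjusted p = 0.148) and 0.24 ± 0.25 (adjusted p = 0.546), so none passed. The levels rest on 7 to 44 reads per mouse. In the polysomal libraries of vehicle mice 2, 5 and 6 and of CX-5461 mouse 6, between 10.1% and 26.2% of counts fell on Lars2 and Yam1. Without them the Rag2 differences were 0.57 ± 0.28 (adjusted p = 0.529), 0.82 ± 0.27 (adjusted p = 0.246) and 0.15 ± 0.28 (adjusted p = 0.746), and 1 gene in all was called for CX-5461, against 135 with them. In the input, Rag2 had log2 fold changes of 0.03 ± 0.20, 0.31 ± 0.20 and -0.09 ± 0.20 (adjusted p = 0.994, 0.485 and 0.783). The change in polysomal relative to input RNA, here called translational efficiency, was 0.78 ± 0.29 for CX-5461 (adjusted p = 0.971), 0.60 ± 0.28 for everolimus (adjusted p = 0.747) and 0.31 ± 0.29 for the combination (adjusted p = 0.675).

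Of the remaining members in the acute study, Vpreb3 had mean input levels of 129.9 ± 13, 138.5 ± 15.1, 124.8 ± 9.19 and 122 ± 14.7 CPM with vehicle, CX-5461, everolimus and the combination (SD, n = 6), with log2 fold changes within 0.09 of 0 in either direction. Dntt had 5 to 26 polysomal reads per mouse, with log2 fold changes of 0.63 ± 0.28 (adjusted p = 0.262), 0.28 and -0.29. Igll1 had 65 input reads over 6 vehicle mice against 25 over 6 CX-5461 mice, and a log2 fold change of -1.17 ± 0.50 with no filter on low counts (adjusted p = 0.59). Vpreb1 had 43 input reads with vehicle and 31, 50 and 37 with CX-5461, everolimus and the combination. Vpreb2 had at most 6 reads in any group of 6 mice.

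No member was called in any acute comparison against vehicle with edgeR. In the input 3 members were tested, and 0.399% (CX-5461), 0.106% (everolimus) and 7.48% (combination) of 16055 genes were called. For the polysomal fraction 4 members were tested, and the shares of all genes were 0.878%, 0.15% and 7.42%. For translational efficiency 6 members were tested, and 0% of 16421 genes passed for each of the 3 treatments with edgeR (109, 69 and 364 genes with no filter on low counts). At an unadjusted p of 0.05, the numbers of members were 0, 1 and 0 (input), 2, 2 and 0 (polysomal) and 1, 1 and 0 (translational efficiency). At that level 1560, 2310 and 4777 of all genes passed in the input, 2478, 1683 and 4432 on polysomes and 796, 1074 and 2147 for translational efficiency. The summed T cell marker level, in which host thymocyte or T cell RNA would show, was lower in the CX-5461 mice (median 62.9 CPM in the input) and combination mice (58.4 CPM) than in vehicle mice (86.1 CPM), and its part in the member values was not tested. In these bulk libraries, fewer cells that express a gene and less of its RNA per cell cannot be told apart.

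**Figure D4:**
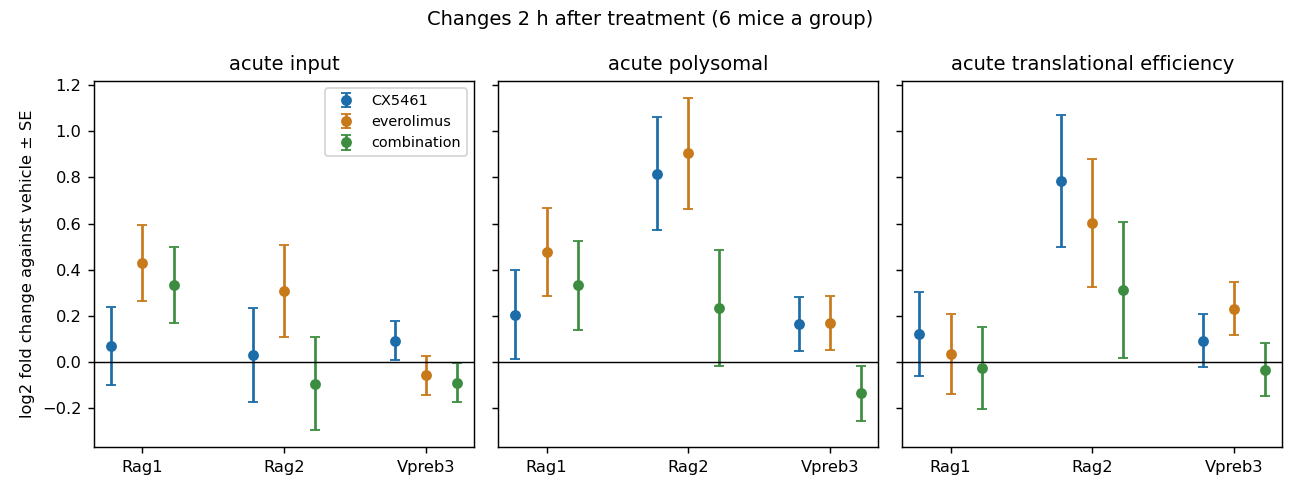
Log2 fold changes against vehicle of Rag1, Rag2 and Vpreb3 in the acute study, with points for the fitted values and whiskers for the SE, for CX-5461, everolimus and the combination in input RNA, polysomal RNA and translational efficiency. The largest are those of Rag2 in the polysomal RNA, at 0.82 and 0.90 for CX-5461 and everolimus.

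Polysomal RNA was compared with input RNA of the same mouse or line, with the library sizes of both fractions normalized together. A value above 0 therefore means more polysomal RNA relative to the bulk of genes, and the ratios differ from those of the CPM above, which were normalized within a fraction. In the relapse lines, Rag1 was higher in polysomal than in input RNA by 0.58 ± 0.07 on the log2 scale (adjusted p = 5.89e-06) and Rag2 by 0.92 ± 0.17 (adjusted p = 0.00027). The polysomal to input ratio of Rag1 was above 1 in 12 of 12 lines, at 1.47 to 1.53 in the drug-naive lines, 1.13 to 1.38 in the CX-5461 lines, 1.61 to 1.86 in the everolimus lines and 1.39 to 2.05 in the combination lines. The CX-5461 lines were thus below all drug-naive lines, and the everolimus lines above them. Of the CX-5461 lines, 14 and 39 had 1.15 and 1.13, and line 20 had 1.38. The interaction of fraction with treatment was not tested in the relapse lines. How many other genes separate the groups in this way was not counted. Vpreb3 was lower in polysomal than in input RNA by 0.24 ± 0.08 (adjusted p = 0.0198), a call lost without CX-5461 lines 14 and 39 (adjusted p = 0.123) and in 2 further alternatives. Its ratio was 1.03 to 1.10 in the drug-naive lines and 0.571 to 0.917 in the 9 drug lines. Vpreb1 and Igll1 differed by -0.19 and -0.44 (adjusted p = 0.612 and 0.478). Of 5 members tested 3 passed, where 68.7% of 15637 genes did.

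In the acute study Vpreb3 was lower on polysomes by a larger margin, with a log2 difference of -0.75 ± 0.04 (adjusted p = 3.82e-16) and a ratio below 1 in all 24 mice. Rag1 had a difference of -0.10 ± 0.06 (adjusted p = 0.127), and Rag2 one of -0.24 ± 0.11 (adjusted p = 0.0427) that lost its call with no filter on low counts (adjusted p = 0.0698) and without the mouse block (adjusted p = 0.0527). Dntt was higher on polysomes by 0.36 ± 0.15 (adjusted p = 0.0269). Of 6 members tested 3 passed, and 76% of 16421 genes did. On this scale Rag1 was above the input in 12 and Rag2 in 11 of the 12 relapse lines of clone 107, and Rag1 did not pass and Rag2 lay below it in the mice carrying clone 4242. The difference between studies was not tested.

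**Figure D5:**
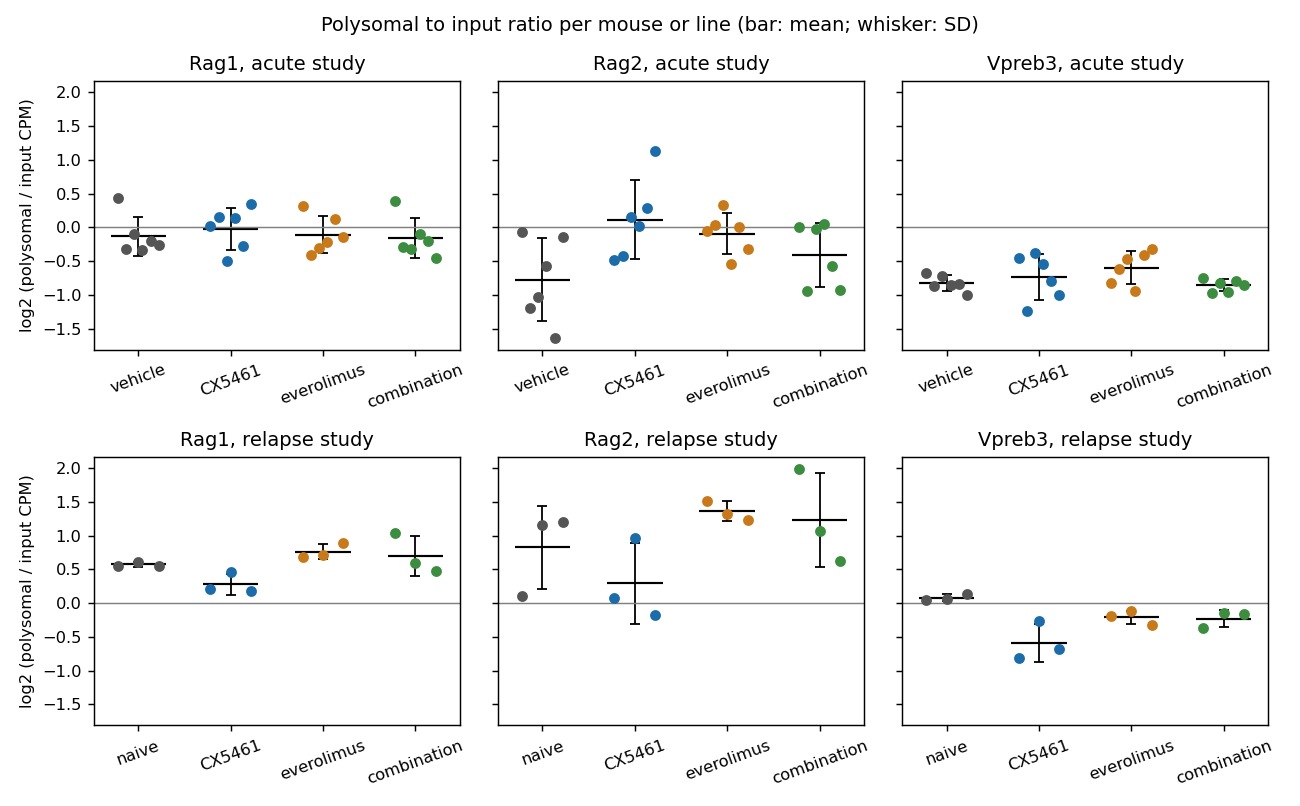
Polysomal to input ratio (log2 scale) of Rag1, Rag2 and Vpreb3 in each mouse of the acute study and each line of the relapse study, with points for mice or lines, bars for group means and whiskers for the SD. Rag1 lies above a ratio of 1 in all 12 relapse lines, and Vpreb3 lies below 1 in all 24 mice and all 9 drug lines.

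Genes around the recombinase locus were looked at in the same relapse lines. Traf6, a signalling adaptor gene next to Rag1 and Rag2, had mean input levels of 31.1 CPM in the drug-naive lines and 36.4, 28.5 and 33.7 CPM after CX-5461, everolimus and the combination, with a log2 fold change of 0.23 ± 0.13 for CX-5461 (adjusted p = 0.319). On polysomes Traf6 had 67.5 CPM in the drug-naive lines and 87.9, 67.3 and 72.3 CPM in the same order. The CX-5461 log2 fold change there was 0.38 ± 0.10 (adjusted p = 0.0314, edgeR), where 19.5% of all genes were called. The transcript B230118H07Rik overlaps both Rag genes. It had 1 to 11 input reads in the drug-naive lines and 0 to 23 in the drug lines, and 2 to 9 against 18 to 133 polysomal reads. Its polysomal log2 fold changes against drug-naive were 3.72 ± 0.51, 2.83 ± 0.50 and 3.86 ± 0.51 for CX-5461, everolimus and the combination (± SE), given as a description. Whether counting used strand is not given in the sources used here. Reads over the stretches B230118H07Rik shares with the exons of Rag1 (0.503% of windows of 50 bases in GENCODE M21) and Rag2 (4.7%) therefore cannot be assigned to one gene. The drug lines had 961 to 4981 Rag1 and 587 to 1271 Rag2 polysomal reads. What part of the B230118H07Rik count comes from such reads was not tested, so its rise is not separate support.

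The 5 genes outside the members whose input level was most like that of Rag1 over the 12 relapse lines were ranked among 9683 genes by Pearson's r of log2 CPM, a description with no test. They were Dusp4 (r = 0.976), which encodes a phosphatase of MAP kinases, Ints3 (0.974), an Integrator complex subunit, Sh2b2 (0.974), an adaptor of tyrosine kinase receptors, Ttc7b (0.973) and Scn8a (0.963), a sodium channel. On polysomes the r of the same genes was 0.893, 0.913, 0.969, 0.631 and 0.961. Dusp4 had mean levels of -0.56 log2 CPM in the drug-naive lines and 4.13, 1.99 and 3.76 log2 CPM after CX-5461, everolimus and the combination. Sh2b2 had 0.049, 4.74, 2.46 and 4.38 log2 CPM in that order, and Scn8a 1.13, 4.97, 3.30 and 4.86. The genes were picked for likeness to Rag1 over these same lines, so a shared order of the groups follows from the choice. Rag2 ranked 157 (input r = 0.865, polysomal r = 0.928) and Vpreb3 ranked 7603 (r = -0.41 and -0.63). The 12 lines come from 1 clone and fall into treatment groups, so the points are not independent.

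Transcription factors that act on the Rag and surrogate light chain genes were taken as a list of 26, of which 24 were tested in the relapse study. Foxo1, an activator of the Rag genes, had input log2 fold changes against drug-naive of 0.75 ± 0.26 (adjusted p = 0.102), 0.20 ± 0.26 (adjusted p = 0.625) and 0.70 ± 0.26 (adjusted p = 0.094) for CX-5461, everolimus and the combination. It passed under 3 of 11 alternatives for CX-5461 and 2 of 11 for the combination. Ebf1, Pax5, Tcf3 and Ikzf1, which specify or maintain B cells, did not pass against drug-naive in either fraction in the main fits, and their input values lay between -0.45 and 0.24. Some of them passed under alternatives, most often Pax5, in 4 of 12 for CX-5461 on polysomes. The list had 1 member higher and 2 lower for CX-5461, none for everolimus, and 3 higher and 1 lower for the combination, with medians of 0.099, 0.16 and 0.20 against -0.026, -0.0076 and -0.015 over all genes. The shares of all genes called in these contrasts, 8.37%, 11.7% and 13.5%, are the background for the counts of this list, 3, 0 and 4 of 24. Spib, which encodes an ETS factor of B cells, fell by 1.90 ± 0.23 after CX-5461 (adjusted p = 0.00125) and by 1.52 ± 0.23 after the combination (adjusted p = 0.00286). Both Spib calls held under every alternative run. Id2, an inhibitor of E proteins, fell by 1.49 ± 0.42 in the CX-5461 input (adjusted p = 0.0479), a call lost under 8 of 11 alternatives, and by 2.01 ± 0.33 in the CX-5461 polysomal RNA (adjusted p = 0.00593). Irf4 rose by 0.61 ± 0.16 after CX-5461 (adjusted p = 0.033), and Bcl6 by 1.87 ± 0.47 and Bach2 by 0.87 ± 0.23 after the combination (adjusted p = 0.0227 and 0.0294), and each of these calls was lost under at least 4 of 11 alternatives.

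Of 16 factors that join the cut ends, tested in the input, 1 was higher and 0 lower after CX-5461, 1 higher and 3 lower after everolimus, and 0 higher and 2 lower after the combination, with medians of -0.18, -0.35 and -0.12, beside the 8.37%, 11.7% and 13.5% of all genes. Trp53bp1, which protects broken ends from resection, rose by 0.52 ± 0.13 after CX-5461 (adjusted p = 0.0275). Rif1, its partner, fell by 0.87 ± 0.23 after everolimus (adjusted p = 0.0321) and by 0.82 ± 0.23 after the combination (adjusted p = 0.0334), and Atm, the kinase that signals breaks, fell by 0.70 ± 0.21 after everolimus (adjusted p = 0.047). Each of these calls was lost under at least 5 of 11 alternatives.

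The partners of the pre-B cell receptor held calls in both directions. Fyn, a Src family kinase, rose by 1.31 ± 0.20 after CX-5461 (adjusted p = 0.00356) and by 1.07 ± 0.20 after the combination (adjusted p = 0.00621), held under every alternative run. Blnk, the adaptor that carries the receptor's signal, rose by 0.65 ± 0.13 after the combination (adjusted p = 0.00772), also held throughout, and by 0.51 ± 0.13 after CX-5461 (adjusted p = 0.03), lost under 7 of 11 alternatives. Over the list of 14, 3 were higher and 1 lower after CX-5461, 2 and 0 after everolimus and 2 and 0 after the combination, with medians of -0.044, 0.18 and -0.097, beside the 8.37%, 11.7% and 13.5% of all genes. Prkcb, which encodes a protein kinase C, fell by 0.92 ± 0.24 after CX-5461 (adjusted p = 0.0374), a call lost under 5 of 11 alternatives. Ighm, the heavy chain that pairs with the surrogate light chain, had the highest mean level of the list, at 1640 CPM in the relapse input.

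Markers of B cell stages did not move as one group. Of 9 pro-B and pre-B cell markers tested in the input, 0 were higher and 1 lower after CX-5461, none passed after everolimus, and 1 was higher and 2 lower after the combination, with medians of -0.63, -0.54 and -0.62, beside the 8.37%, 11.7% and 13.5% of all genes. Cd93, a surface protein of immature B cells, fell by 1.08 ± 0.18 after CX-5461 (adjusted p = 0.00511) and by 1.08 ± 0.18 after the combination (adjusted p = 0.00399). Flt3, a receptor gene of early progenitors, rose by 1.02 ± 0.28 after the combination (adjusted p = 0.0334), a call lost under 6 of 11 alternatives. The summed level of the 11 genes was 1590 to 1850 CPM in the drug-naive lines, 1020 to 1110 after CX-5461, 1070 to 1390 after everolimus and 853 to 1210 after the combination, so the groups did not overlap the drug-naive lines. Cd24a had the highest mean of the 11, at 680 CPM over the relapse input, and weighs most in this sum. How often sums of other genes separate these groups was not tested. Rag1 was higher in the groups in which this sum was lower, and its part in the Rag1 values was not tested. Of 15 mature B cell markers, 1 was higher and 2 lower after CX-5461, 1 and 1 after everolimus, and 2 and 3 after the combination, with medians of 0.27, 0.14 and 0.31 and against the same shares of all genes. Igkc, the kappa light chain constant region, fell by 2.28 ± 0.27 after CX-5461 (adjusted p = 0.000955) and by 1.93 ± 0.26 after the combination (adjusted p = 0.00188). Tnfrsf13c, the BAFF receptor, fell by 1.63 ± 0.19 after CX-5461 (adjusted p = 0.000872) and by 1.23 ± 0.19 after everolimus (adjusted p = 0.00859), and the chemokine receptor gene Ccr7 rose by 1.18 ± 0.17 after everolimus (adjusted p = 0.00859) and by 0.96 ± 0.17 after the combination (adjusted p = 0.00483). The Cd93, Igkc, Tnfrsf13c and these Ccr7 calls held under every alternative run.

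The genes of the same lists called between CX-5461 and everolimus in the input are given next, beside the 4.04% of all genes called there. Rag1 and Rag2 were called in that comparison too. Spib was lower after CX-5461 by a log2 difference of -1.71 ± 0.23 (adjusted p = 0.00752), Igkc by -1.51 ± 0.26 (adjusted p = 0.0161) and Polm, a polymerase of end joining, by -0.75 ± 0.13 (adjusted p = 0.016). Fyn was higher by 0.89 ± 0.20 (adjusted p = 0.0345) and Trp53bp1 by 0.61 ± 0.13 (adjusted p = 0.0266). Without CX-5461 line 39 the Spib, Igkc and Polm calls were lost (adjusted p = 0.0613, 0.0922 and 0.0903), and the Igkc and Polm calls also without CX-5461 line 14 or everolimus line 26. The Fyn and Trp53bp1 calls were lost under 6 and 7 of 11 alternatives.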

How the data were processed

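The authors deposited raw counts of reads per gene symbol in 4 tables, 1 for each fraction of each study. Per the labels' protocols, libraries were made by ribodepletion and sequenced single-end at 50 bases, and per the submitters' processing notes TopHat2, HTSeq and GRCm38 were used. Versions, annotation and the strand setting are not given in the sources used here. Every sample column was used.

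From these counts, group differences were tested by quasi-likelihood in edgeR 4.0.16, separately for the 2 fractions and the 2 studies (R 4.3.3, TMM normalization, filterByExpr with a minimum count of 10), and all 4 treatments shared a model. The Benjamini-Hochberg adjustment ran over every gene tested, and an adjusted p of 0.05 was the threshold for a call. Levels are CPM with TMM library sizes. The SE of a log2 fold change is its size divided by the root of the F statistic. Translational efficiency, the interaction of fraction with treatment, and the comparison of polysomal with input RNA came from fits with mouse or line as a blocking term. Rows that are not genes were left out. Reads in no gene made up 6.07% to 19.7% in the acute input and 5.79% to 26% in the acute polysomal table. Reads counted as ambiguous, also left out, made up 1.86% to 2.46% and 2.36% to 10.1%. Alternatives were DESeq2 1.42.0, RLE size factors, no filter, the compared groups alone, replicates left out and, chosen after seeing the data, the run of columns as a term and the polysomal comparison without CX-5461 lines 14 and 39.

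The members and gene lists were chosen with earlier results of these data known. Genes named were the 7 members, 5 regulators whatever their result, from each list the called genes with the largest changes (up to 2 per direction and comparison), and the 5 genes most like Rag1. Not every gene that rule allows is named. The values of 1 marker gene are not reported here. Traf6 and B230118H07Rik were added for their position. Replicate numbers do not pair mice: same-numbered libraries correlated on average at 0.0115 (input) and -0.0265 (polysomal). Labels name separate mice and lines, and p-values measure the spread between them. The tests were also run on simulated data, with no outcome given here. Gene positions are from GENCODE M21 (GRCm38) and upstream sequences from RefSeq (GRCm38.p6).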

Additional observations from a re-analysis of the deposited data

Results flagged for a closer look

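In the acute study, 8 of 55 sets of 6 mice (1 member gene in 1 group and fraction) held 1 mouse whose distance from the next was large against the range of the set (Dixon's test on log2 CPM with 0.1 added, at the 95% level, which chance passes in about 1 of 20 sets). The relapse groups of 3 lines were too small for this check. Rag2 in the combination input was 0.649 CPM in mouse 4, below the others. Rag2 in the everolimus polysomal RNA was 1.19 CPM in mouse 6, below the others. Rag1 in the everolimus polysomal RNA was 5.76 CPM in mouse 1, above the others. Igll1 in the everolimus input was 0.0511 CPM in mouse 5, and Vpreb1 in the everolimus polysomal RNA was 0.12 CPM in the same mouse, both below the others. Dntt in the everolimus polysomal RNA was 0.39 CPM in mouse 4, below the others. Vpreb2 with CX-5461 had 1 read in 1 mouse and 0 in the other 5 in each fraction, at 0.0516 CPM in the input and 0.0618 CPM in the polysomal RNA of mouse 3. Of these 8 values, 5 are of genes with few reads (Vpreb1, Vpreb2, Igll1 and Dntt). Of the 8, 5 are in everolimus groups, and the cause was not tested.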

How the results depend on the processing

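The number of members called stayed within 1.5 times the main count in 177 of 202 alternatives. In the relapse input, the combination against everolimus called 1 member with DESeq2 and 1 with no filter on low counts (0 in the main fit). Of all genes, 436 and 474 were called there, against 104 in the main fit. CX-5461 against everolimus called 1 with the compared groups alone, and 0 to 2 with each line left out. In the relapse polysomal RNA, everolimus against drug-naive called 2 with DESeq2, 2 with the compared groups alone, 2 without CX-5461 lines 14 and 39, 2 with the run of columns as a term, and 0 to 1 with each line left out (1 in the main fit). The combination against everolimus called 1 with DESeq2, 1 without CX-5461 lines 14 and 39 and 2 with the run term. Of all genes, the combination against everolimus called 781 with DESeq2 and 1679 with the run term, against 104 in the main fit. Everolimus against drug-naive is a contrast that chose the genes, and it called 17 of all genes in the main fit. CX-5461 against everolimus called 3 with DESeq2, 1 with the run term and 0 to 3 with each line left out, where 3 needed CX-5461 line 20 to be left out. Of all genes, 2654 were called with DESeq2, 106 with the run term and 8359 without line 20, against 593 in the main fit. CX-5461 against drug-naive called 1 with the compared groups alone and 1 to 3 with each line left out. The combination against CX-5461 called 0 to 3, again 3 without CX-5461 line 20, where 6752 of all genes were called against 1 in the main fit.

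None of the single values whose sign turned had passed the test. For CX-5461 in the polysomal RNA, the lone line 20 turned several: without lines 14 and 39, and with the run term, Vpreb1 was -6.67 and -7.14 against drug-naive, 6.27 and 6.52 for the combination against CX-5461, and -4.35 and -4.79 against everolimus, while Rag2 was -0.26 and -0.36 and Vpreb3 -0.078 and -0.11 for the combination against CX-5461. Without CX-5461 line 20, Rag1 was 0.32 for the combination against CX-5461, Rag2 was -0.22 for CX-5461 against everolimus (up to 0.36, without line 39) and Foxo1 was -0.23 for CX-5461 against drug-naive (up to 0.68, without line 14). With the run term, Ebf1 was 0.0055 and Tcf3 -0.18 for CX-5461 against drug-naive (polysomal). In the input for everolimus against drug-naive, Tcf3 was -0.016 without everolimus line 12 and Pax5 was 0.096 without drug-naive line 6 and -0.20 without line 38. The cause was not tested.

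The counts over all genes moved more. Over the alternatives that moved them by over 1.5 times, they spanned 365 to 2345 (CX-5461), 90 to 4399 (everolimus) and 766 to 3666 (combination) against drug-naive in the input, and 441 to 8970, 0 to 538 and 460 to 3933 in the polysomal RNA, with 8970 reached without CX-5461 line 20. Between drugs they spanned 18 to 2601 (CX-5461 against everolimus), 3 to 497 (combination against everolimus) and 0 to 197 (combination against CX-5461) in the input, and 0 to 8359, 0 to 1679 and 0 to 6752 in the polysomal RNA. In the acute study they spanned 1 to 156, 6 to 137 and 685 to 3590 in the input and 1 to 360, 4 to 90 and 706 to 3310 in the polysomal RNA (CX-5461, everolimus, combination). With no filter, translational efficiency gave 109, 69 and 364. With the replicate block, 0 members were called in any acute comparison against vehicle, and the polysomal combination count over all genes went from 1140 to 741. The labels' numbers pair no mice, and the relapse lines share no numbers between groups, so no paired analysis was possible there. Depth limits Dntt, Vpreb1, Vpreb2 and Igll1, whose relapse counts were at most 48 reads.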

Other observations

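In the relapse polysomal RNA 19.5% of all genes were called after CX-5461, 0.115% after everolimus and 10% after the combination, and the counts of the lists stand beside these shares. Of 24 regulators, 1 was higher and 3 lower after CX-5461, 0 and 0 after everolimus, and 1 and 2 after the combination, with Spib falling by 1.74 ± 0.24 (adjusted p = 0.00326, edgeR) after CX-5461 and by 1.53 ± 0.24 (adjusted p = 0.00481) after the combination. Of 9 pro-B and pre-B cell markers, 0 were higher and 4 lower after CX-5461, and 1 higher and 3 lower after the combination. Cd93 fell by 1.16 ± 0.16 and Flt3 rose by 1.61 ± 0.44 after the combination (adjusted p = 0.00267 and 0.0454), the latter lost under 7 of 12 alternatives, and Il2ra, which encodes the interleukin 2 receptor alpha chain found on pre-B cells, fell by 2.17 ± 0.43 after CX-5461 (adjusted p = 0.0117), a call lost without CX-5461 lines 14 and 39 (adjusted p = 0.0938). Of 14 mature B cell markers, 1 was higher and 3 lower after CX-5461, 0 and 1 after everolimus, and 1 and 2 after the combination. Tnfrsf13c had log2 fold changes of -1.82 ± 0.21, -1.37 ± 0.21 and -1.87 ± 0.21 in the 3 groups (adjusted p = 0.00191, 0.042 and 0.00142). Its everolimus call was lost under 5 of 12 alternatives.

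Of 15 mature B cell markers in the acute study, 2 were lower in the input after CX-5461, 0 after everolimus and 3 after the combination, where 0.399%, 0.106% and 7.48% of all genes were called. After the combination, the antigen presentation genes H2-Aa and Cd74 fell by 0.58 ± 0.09 (adjusted p = 0.000877) and 0.46 ± 0.07 (adjusted p = 0.00107), in libraries that also held RNA of host cells. Id2 fell by 0.41 ± 0.10 in the input (adjusted p = 0.0221), and Lef1, a factor of pro-B cells and of T cells, fell by 0.86 ± 0.21 in the polysomal RNA (adjusted p = 0.0204). The T cell marker sum was lower in the combination mice too. So was the NK cell marker sum in the input, at 4.42 to 6.99 CPM against 7.42 to 11.2 CPM with vehicle. The part of these cells in the Id2 and Lef1 values was not tested. None of the 16 joining factors was called in the acute input in any of the 3 treatments.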
